A study of Mus musculus with 64 samples.

Results

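Activated bone marrow-derived macrophages (BMMs) that lack the aryl hydrocarbon receptor (AhR) were compared at 20 h and at 3 h post administration (p.a.) of bacteria. The comparison took every library whose label gives the knockout genotype, no AhR ligand, activation and one of these times. These are 8 of the 64 libraries of the series, 4 at each time. Both groups were BMMs of Ahr-/- mice on a C57BL/6 background aged 8 to 12 weeks. They were cultured at 1000000 cells per ml, kept for 6 h with the vehicle DMSO at 0.01%, and then given 10000000 heat-killed bacteria of Salmonella serovar Enteritidis (hk S.E.) per ml. Resting Ahr-/- BMMs with the vehicle but without bacteria (8 libraries over both times) and activated Ahr+/+ BMMs with the vehicle (8 libraries) stood beside them. Resting Ahr+/+ BMMs with the vehicle but without bacteria (8 libraries over both times) were used to sort genes by their course with AhR present. Activated Ahr-/- BMMs that had received the ligand indole-3-carbinol (I3C) or the polycyclic hydrocarbon benzo[a]pyrene (BaP), dissolved in DMSO, gave 8 libraries each. The cells had been grown from marrow with conditioned medium of L929 fibroblasts as a source of M-CSF. The deletion was carried by all cells of the donor mice, and the methods name 4 mice of each genotype as donors. In bulk RNA, fewer cells of a kind and less RNA per cell cannot be told apart.

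Gram-negative bacteria engage Toll-like receptors on macrophages, and NF-kB, AP-1 and IRF transcription factors then switch on cytokine genes within hours. Interferon-beta made in this first phase acts back on the cell through the JAK-STAT pathway and drives antiviral genes. Induced inhibitors such as SOCS proteins, A20 and tristetraprolin shut the first phase down, and later hours bring acute phase proteins and antioxidant enzymes. AhR, a transcription factor switched on by small ligands, takes part in the control of this course. The comparison asks how the course ran between 3 h and 20 h p.a. where AhR was missing.

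The 8 libraries held 18852317 to 50644601 counts on genes, within 12152496 to 233047331 over all 64. Levels are given as counts scaled to 1000000 per library (CPM). All 9 macrophage markers were detected, with a sum of 29681 to 35026 CPM at 3 h and 20420 to 32460 CPM at 20 h. Neutrophil markers summed to 115 to 119 CPM at 3 h and 22.2 to 32.4 CPM at 20 h, with all 10 detected at 3 h and Ly6g and Retnlg at 0 at 20 h. In resting Ahr-/- BMMs the neutrophil markers summed to 20.9 to 25.4 CPM at 3 h and 17.2 to 67.0 CPM at 20 h. Markers of T and NK cells, B cells, mast cells and megakaryocytes each summed to at most 2.11 CPM in any of the 8 libraries. Dendritic cell markers summed to 2.29 to 3.18 CPM at 3 h and 0.507 to 0.883 CPM at 20 h. Stromal and endothelial markers summed to 13.6 to 24.5 CPM at 3 h and 4.61 to 21.5 CPM at 20 h, most of it Kdr, with the other 7 markers each at a mean below 1 CPM. The part of these cells in the results was not tested. Ahr itself read 13.1, 12.8, 12.9 and 12.8 CPM at 3 h and 24.1, 21.3, 25.9 and 28.1 CPM at 20 h, and since gene-level counts take in parts of the transcript outside a deletion, this value does not check the genotype. Replicates 1 and 2 resembled each other, as did replicates 3 and 4, at both times, and the source of this split was not tested. Calls of 20 h against 3 h that it changed are given beside the genes. All 3 h libraries of the comparison carry identifiers of one series and all 20 h libraries those of another, so that time and library series cannot be told apart.

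Most genes differed between the times. Of 14537 genes tested, 4606 (31.7%) were higher and 3531 (24.3%) lower at 20 h than at 3 h p.a. at an adjusted p below 0.01 (edgeR quasi-likelihood test, Benjamini-Hochberg adjustment). Against a change of 2-fold, 1182 genes (8.13%) rose further than that and 1431 (9.84%) fell further. These held 2324 protein-coding genes, of which 1172 had a mean of at least 10 CPM and no overlap between the libraries of the 2 times. Of the 1172, 421 rose and 751 fell, and most of the 15 with the largest change each way are named below. The median log2 fold change over all genes was 0.09. The split depended on scaling: with library size only, without the composition factor, the median moved by 0.37 and 73.9% of the 9220 genes called were higher, against 56.6% of the 8137 called here. Directions below are relative to the composition-scaled libraries.

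**Figure D1:**
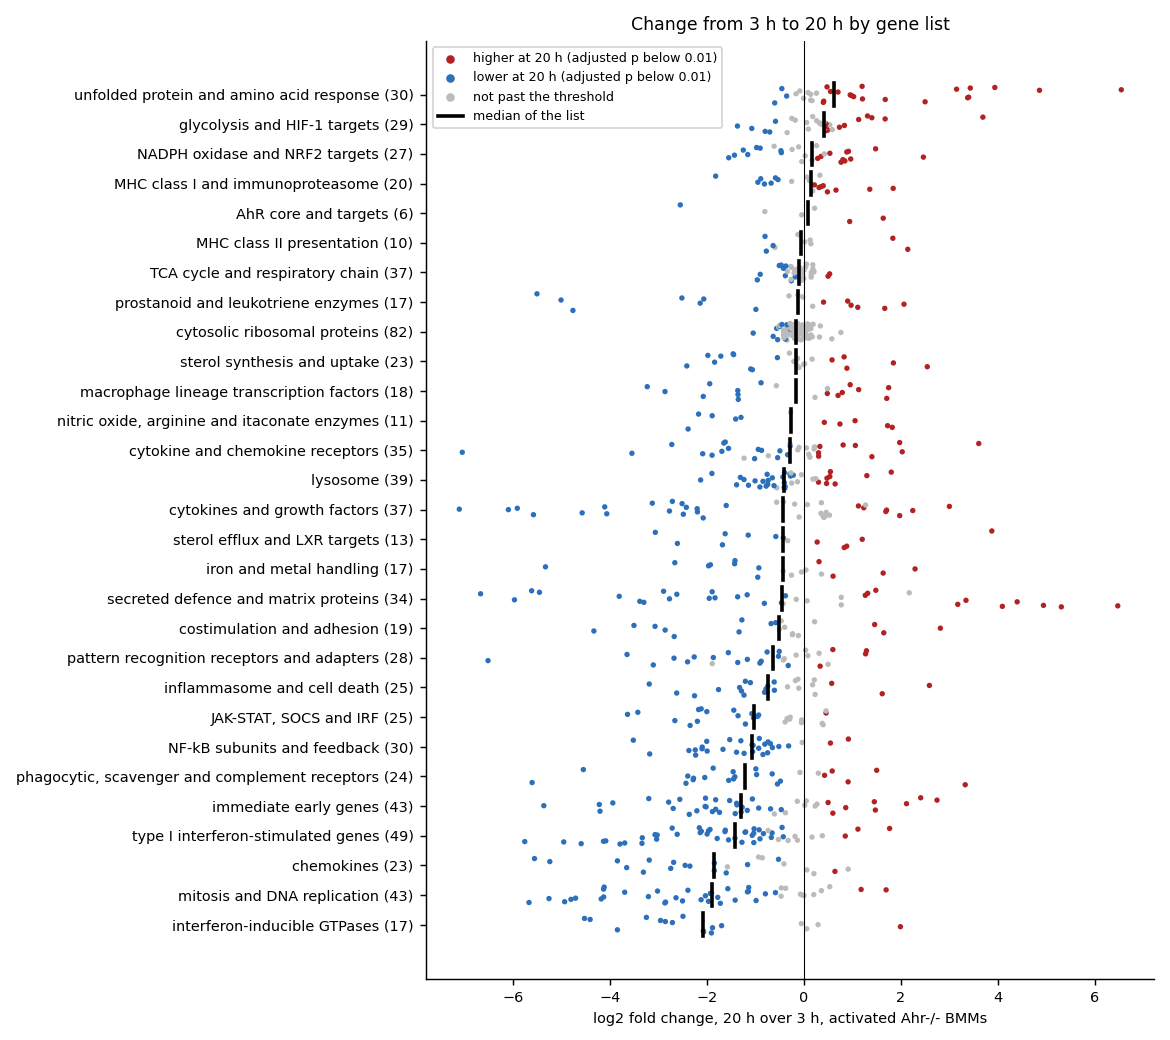
Change from 3 h to 20 h p.a. in activated Ahr-/- BMMs for each tested member of 29 gene lists (x axis, log2 fold change). Each point is a gene (red higher, blue lower, grey not past the threshold), black bars are list medians, and brackets give the number tested: GTPases (median -2.07), mitosis genes (-1.90) and chemokines (-1.84) lie lowest, the list of stress and amino acid response genes (0.63) highest.

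Genes driven by interferon fell almost throughout. Of 49 type I interferon-stimulated genes 39 fell, 3 rose and 7 did not pass the test, with a median log2 fold change of -1.42. In resting Ahr-/- BMMs 20 of the 49 also fell over the same hours, with a median of -0.70. Of 17 tested GTPases induced by interferons 13 fell and 1 rose, with a median of -2.07, where 24.3% of all genes fell. Several of these genes carry the core of the interferon-stimulated response element, the DNA site of ISGF3 and IRF proteins, close to their start. The core was searched as GAAA, any 2 bases and GAAA, on both strands of RefSeq promoter windows (GRCm38.p6, 250 bases before to 50 after the start). It was in 17 of the 36 interferon-stimulated genes with a window and in 9 of the 9 GTPases with a window, against 3.44% of all 32851 windows and 4.04% of the tested genes with a window. Of genes that fell beyond 2-fold 7.6% held it, and of those that rose 2.91%. The sequences around the match are shown for 4 genes whose values follow, in the direction of transcription and with each match in capitals (2 for Ifit1), which on the opposite strand reads TTTC, any 2 bases and TTTC. They lie upstream of the start, at chr12:26456538-26456597 (minus strand) for Rsad2, chr19:34640760-34640819 (plus strand) for Ifit1, chr5:92349068-92349127 (minus strand) for Cxcl10 and chr3:142496744-142496803 (plus strand) for Gbp5.
Rsad2: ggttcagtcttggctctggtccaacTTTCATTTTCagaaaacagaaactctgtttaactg
Ifit1: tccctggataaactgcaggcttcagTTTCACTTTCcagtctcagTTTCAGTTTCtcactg
Cxcl10: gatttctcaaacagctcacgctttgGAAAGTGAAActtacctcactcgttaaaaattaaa
Gbp5: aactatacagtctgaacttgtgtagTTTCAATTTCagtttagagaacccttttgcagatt

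Cmpk2, a mitochondrial nucleotide kinase gene next to Rsad2, read 6630.3, 5253, 7547 and 7807 CPM at 3 h and 73.3, 51, 219.9 and 161 CPM at 20 h. Cmpk2 fell by 5.75 ± 0.43 SE on the log2 scale (adjusted p = 1.3e-17), the steepest fall of the list, and its own window held no match. Rsad2, which encodes viperin, read 13157, 11154, 16342 and 16396 CPM at 3 h and 235, 132, 861 and 619.7 CPM at 20 h. Rsad2 fell by 4.95 ± 0.47 SE on the log2 scale (adjusted p = 1.2e-13). For both genes the times did not overlap, and the 20 h values of replicates 3 and 4 were above those of replicates 1 and 2. Ifit1, an antiviral RNA-binding protein, fell from 4458 ± 999 to 323 ± 153 CPM (log2 fold change -3.79 ± 0.39 SE, adjusted p = 2.2e-12). Its relative Ifit2 fell from 5488 ± 1579 to 228 ± 166 CPM (log2 fold change -4.59 ± 0.51 SE, adjusted p = 1.6e-11). Mx1 and Mx2, dynamin-like GTPases, had log2 fold changes of -4.13 and -4.08, Ifih1, the RNA sensor MDA5, one of -3.33, and Oasl1 one of -3.03. Isg15, a ubiquitin-like protein, moved less, with 1039, 1022, 849 and 836 CPM at 3 h and 454, 334, 560.4 and 486 CPM at 20 h. Isg15 fell by 1.03 ± 0.20 SE on the log2 scale (adjusted p = 1.4e-05).

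Gbp5, a guanylate-binding protein of host defence against intracellular bacteria, read 2596, 2172, 2516 and 2345 CPM at 3 h and 133, 98.2, 219 and 221 CPM at 20 h. Gbp5 fell by 3.84 ± 0.24 SE on the log2 scale (adjusted p = 3.2e-20). Iigp1 fell from 205 ± 105 to 9.58 ± 7.35 CPM (log2 fold change -4.40 ± 0.58 SE, adjusted p = 1.9e-09), with its 3 h values in replicates 3 and 4 above those in 1 and 2. Irgm1 fell from 1375 ± 206 to 210.4 ± 37.8 CPM (log2 fold change -2.71 ± 0.18 SE, adjusted p = 1.3e-19), and Gbp2 from 1647 ± 172 to 440.2 ± 177 CPM (log2 fold change -1.90 ± 0.25 SE, adjusted p = 3.5e-09). Gbp, Tgtp and Ifit genes have close paralogs, which makes their counts less certain. At 20 h all 17 GTPases and 47 of the 49 interferon-stimulated genes were still above the resting level, where 28.3% of all genes were higher and 26.0% lower than in resting BMMs. The median distance from rest at 20 h was 2.57 on the log2 scale for the interferon-stimulated genes and 3.87 for the GTPases.

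A few genes of the group did not follow. Irf7, the transcription factor that amplifies interferon-alpha genes, read 1115, 1011, 1059.6 and 1017 CPM at 3 h and 1117, 977, 1410.0 and 1225 CPM at 20 h. The difference for Irf7 was 0.17 ± 0.26 SE on the log2 scale (adjusted p = 0.58), and the times overlapped. Bst2, which encodes the virus-tethering protein tetherin, read 387, 377, 369 and 338 CPM at 3 h and 701, 642, 708 and 612 CPM at 20 h. Bst2 rose by 0.86 ± 0.13 SE on the log2 scale (adjusted p = 4.5e-08). Slfn4, a schlafen gene of myeloid cells, read 29.2, 29.7, 40.8 and 37 CPM at 3 h and 67.1, 49.3, 208 and 142 CPM at 20 h. Slfn4 rose by 1.77 ± 0.41 SE on the log2 scale (adjusted p = 1.4e-04), and replicates 3 and 4 were the highest at 20 h. With replicates 1 and 2 only the difference was 0.98 and did not pass (adjusted p = 0.115).

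Upstream of these genes, Ifnb1, the interferon-beta gene, read 6.66, 3.8, 17.6 and 16.7 CPM at 3 h and 0.095, 0.112, 0.368 and 0.11 CPM at 20 h. Ifnb1 fell by 6.09 ± 0.51 SE on the log2 scale (adjusted p = 1.5e-15), and replicates 3 and 4 had the higher values at 3 h. Irf1, a transcription factor induced by interferon and NF-kB, read 1187, 1028, 1319 and 1319 CPM at 3 h and 102, 97, 128 and 126 CPM at 20 h. Irf1 fell by 3.42 ± 0.13 SE on the log2 scale (adjusted p = 2.8e-30). Stat2, a transcription factor of the interferon pathway, fell from 617 ± 62.7 to 318 ± 72.3 CPM (log2 fold change -0.96 ± 0.15 SE, adjusted p = 1.8e-07). The feedback inhibitor Socs1 fell from 171 ± 5.79 to 33.7 ± 12.5 CPM (log2 fold change -2.34 ± 0.23 SE, adjusted p = 4.1e-13). Socs3, induced downstream of IL-6 and IL-10, fell from 1451 ± 309.9 to 631 ± 106 CPM (log2 fold change -1.20 ± 0.15 SE, adjusted p = 1.0e-09). Cish, a STAT5 target of the same family, fell from 76.1 ± 4.12 to 12.1 ± 5.72 CPM (log2 fold change -2.66 ± 0.27 SE, adjusted p = 8.3e-13). In all, 15 of 25 genes of JAK-STAT signalling, SOCS and IRF factors fell and 1 rose (median -1.03), where 24.3% of all genes fell.

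**Figure D2:**
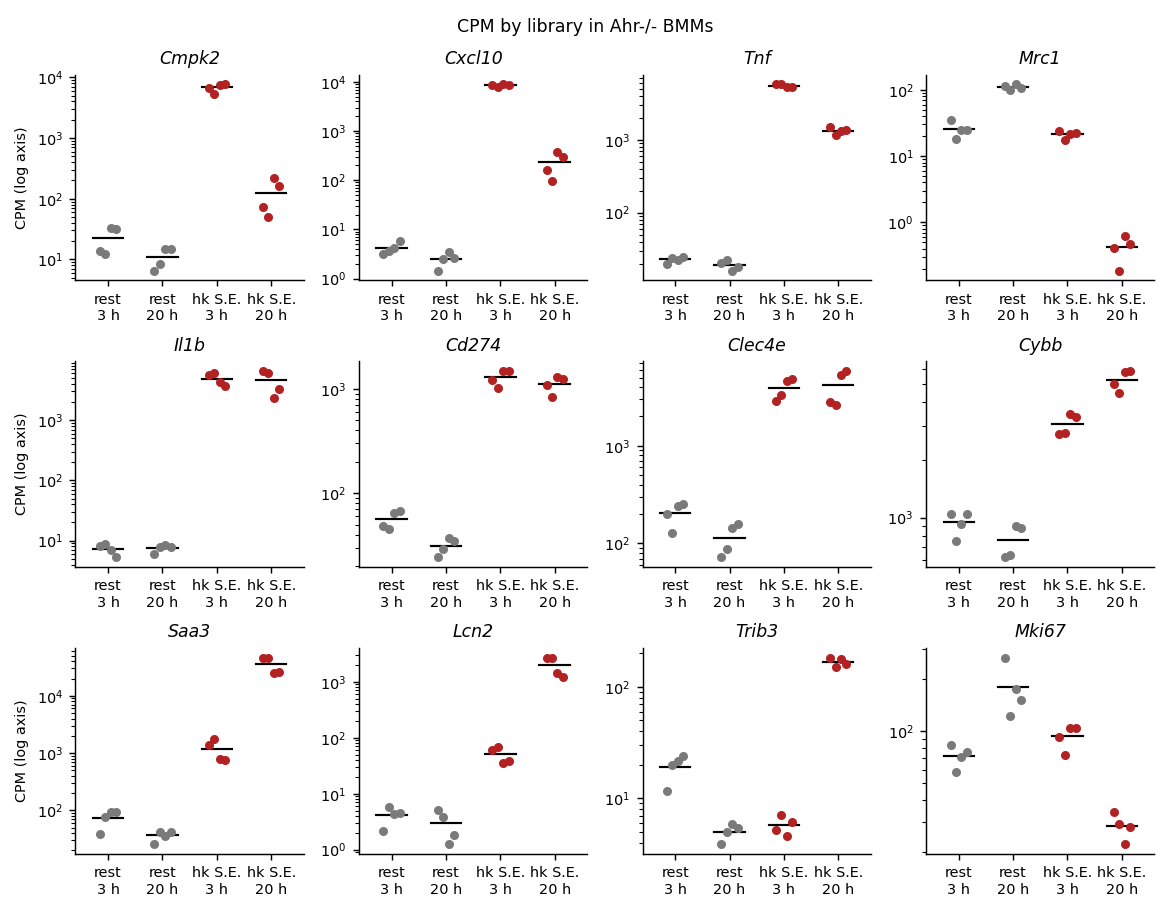
CPM (log axis) of 12 genes in each Ahr-/- library, resting (grey) and hk S.E. activated (red) at 3 h and 20 h p.a., with bars at the mean of 4 libraries. Cmpk2, Cxcl10 and Tnf fell between the times but stayed above rest, Il1b, Cd274 and Clec4e overlapped between the times, Saa3, Lcn2 and Trib3 rose, and Mrc1 and Mki67 fell below both resting groups.

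Cytokine genes parted into those that fell, those whose times overlapped and a few that rose. Of 37 tested cytokines and growth factors 17 fell, 7 rose (13 with library size only) and 13 did not pass. Of all genes 24.3% fell and 31.7% rose. Tnf, the first-line inflammatory cytokine, read 5871, 5774, 5331 and 5304 CPM at 3 h and 1487, 1157, 1307 and 1345 CPM at 20 h. Tnf fell by 2.07 ± 0.12 SE on the log2 scale (adjusted p = 1.0e-21). Il27, the p28 subunit of IL-27, read 469, 413, 378 and 345 CPM at 3 h and 19.9, 15.1, 16.9 and 15.7 CPM at 20 h. Il27 fell by 4.57 ± 0.18 SE on the log2 scale (adjusted p = 2.8e-29). Csf1, the macrophage growth factor, fell from 501 ± 19.7 to 73.4 ± 13.7 CPM (log2 fold change -2.77 ± 0.18 SE, adjusted p = 9.9e-20). Il15, a survival factor for NK and memory T cells, read 311, 301, 403 and 393 CPM at 3 h and 4.37, 5.51, 9.57 and 9.9 CPM at 20 h. Il15 fell by 5.57 ± 0.30 SE on the log2 scale (adjusted p = 2.3e-23). Resting Il15 levels were 7.01 ± 0.729 CPM at 3 h and 9.05 ± 1.88 CPM at 20 h, and at 20 h activated minus resting was -0.31 ± 0.26 SE, adjusted p = 0.31. Tnfsf10, which encodes the death ligand TRAIL, fell from 172 ± 52.8 to 2.81 ± 1.75 CPM (log2 fold change -5.91 ± 0.37 SE, adjusted p = 2.2e-20).

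Il1b, by contrast, read 5657, 6002, 4245 and 3751 CPM at 3 h and 6636, 6134, 2356 and 3287 CPM at 20 h. The difference for Il1b was -0.09 ± 0.26 SE on the log2 scale (adjusted p = 0.77), and at both times replicates 1 and 2 lay above replicates 3 and 4. Il6 read 373, 345, 609.5 and 571 CPM at 3 h and 1021, 569.6, 454 and 465 CPM at 20 h. The difference for Il6 was 0.40 ± 0.23 SE on the log2 scale (adjusted p = 0.13). Replicates 1 and 2 were higher and replicates 3 and 4 lower at 20 h, and with replicates 1 and 2 only Il6 passed as higher (1.15, adjusted p = 0.0015). Il12b, the p40 subunit of IL-12 and IL-23, stood at 93.4 ± 34.3 CPM at 3 h and 135 ± 46.5 CPM at 20 h (log2 fold change 0.53 ± 0.24 SE, adjusted p = 0.05). Il10, which restrains macrophages, stood at 6.72 ± 2.41 CPM at 3 h and 9.16 ± 1.58 CPM at 20 h (log2 fold change 0.44 ± 0.28 SE, adjusted p = 0.17). Il1a stood at 1625 ± 211 CPM at 3 h and 2169.7 ± 425 CPM at 20 h (log2 fold change 0.42 ± 0.20 SE, adjusted p = 0.065). Il1rn, the IL-1 receptor antagonist, stood at 515 ± 18.3 CPM at 3 h and 663 ± 229.8 CPM at 20 h (log2 fold change 0.36 ± 0.25 SE, adjusted p = 0.2). None of these 6 passed the threshold by the edgeR test. With library size only Il6, Il12b, Il10, Il1a and Il1rn passed as higher (adjusted p at most 0.0094), and with the replicate block Il12b did (0.55, adjusted p = 1.4e-04). At 20 h all 6 were above rest (adjusted p at most 2.5e-12).

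Inhba, the activin A subunit, read 53.4, 57, 109 and 111 CPM at 3 h and 682, 382, 763 and 822 CPM at 20 h. Inhba rose by 3.00 ± 0.31 SE on the log2 scale (adjusted p = 1.3e-12), without overlap. Il12a, the p35 subunit that pairs with Il12b, read 9.53, 7.96, 7.85 and 7.16 CPM at 3 h and 53, 40, 16.1 and 19.1 CPM at 20 h. Il12a rose by 1.98 ± 0.33 SE on the log2 scale (adjusted p = 1.8e-06), and its resting libraries held no counts. With replicates 3 and 4 only the call was lost (1.23, adjusted p = 0.0195). Csf3, encoding G-CSF, had low levels of 2.24, 2.79, 1.06 and 1.53 CPM at 3 h and 6.62, 10.6, 3.13 and 4.73 CPM at 20 h. Csf3 rose by 1.71 ± 0.42 SE on the log2 scale (adjusted p = 5.0e-04), each 20 h value being above every 3 h value. With replicates 3 and 4 only this call too was lost (adjusted p = 0.0244).

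Chemokines fell in 15 of 23 tested cases, rose in 1 and did not pass in 7, where 24.3% of all genes fell. Cxcl10, the CXCR3 ligand whose upstream sequence is printed above, read 8834, 7989, 9113 and 8762 CPM at 3 h and 165, 95.8, 367 and 294 CPM at 20 h. Cxcl10 fell by 5.24 ± 0.35 SE on the log2 scale (adjusted p = 2.0e-19). Cxcl11, a ligand of the same receptor, fell from 68.8 ± 19.1 to 4.78 ± 3.57 CPM (log2 fold change -3.84 ± 0.46 SE, adjusted p = 2.2e-10). Cx3cl1, fractalkine, fell from 24.2 ± 11.5 to 0.512 ± 0.433 CPM (log2 fold change -5.55 ± 0.46 SE, adjusted p = 8.6e-16). Ccl4, which attracts monocytes and T cells, read 5052, 5079.5, 4405 and 4344 CPM at 3 h and 462, 392, 537 and 518 CPM at 20 h. Ccl4 fell by 3.31 ± 0.17 SE on the log2 scale (adjusted p = 3.9e-24). Ccl3, a related chemokine, fell from 5698 ± 753 to 1882 ± 339 CPM (log2 fold change -1.60 ± 0.18 SE, adjusted p = 2.5e-11). Ccl9 fell from 4893 ± 416 to 731 ± 119 CPM (log2 fold change -2.74 ± 0.12 SE, adjusted p = 5.8e-27). Of the neutrophil attractants, Cxcl1 fell from 545 ± 110.4 to 100.0 ± 43.2 CPM (log2 fold change -2.45 ± 0.34 SE, adjusted p = 1.2e-08) and Cxcl2 from 1869 ± 162 to 838 ± 301 CPM (log2 fold change -1.16 ± 0.22 SE, adjusted p = 5.5e-06). For Cxcl2 the call was lost with replicates 1 and 2 only (-0.76, adjusted p = 0.0331).

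Ccl2 and Ccl7, the ligands of CCR2 that draw monocytes, overlapped between the times. Ccl2 read 309, 192, 253 and 219 CPM at 3 h and 318, 225, 323 and 259 CPM at 20 h. The difference for Ccl2 was 0.21 ± 0.26 SE on the log2 scale (adjusted p = 0.5), and replicate 1 was among the highest at both times. Ccl7 stood at 188 ± 43.6 CPM at 3 h and 197 ± 53.2 CPM at 20 h (log2 fold change 0.06 ± 0.26 SE, adjusted p = 0.84). Ccl5 was the chemokine that rose, with 3081, 3293, 2072 and 2218 CPM at 3 h and 4066, 3892, 4310.1 and 4397 CPM at 20 h. Ccl5 rose by 0.64 ± 0.21 SE on the log2 scale (adjusted p = 0.0061). The call was lost without replicate 3 or 4 at 3 h (adjusted p = 0.046 and 0.039) or at 20 h (0.013 and 0.015), with replicates 1 and 2 only (0.263), and with DESeq2 (0.018).

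The NF-kB system moved almost as a whole. Of 30 subunits, inhibitors and upstream adapters 27 fell and 2, Irak3 and Traf3, rose (median -1.06), where 24.3% of all genes fell. Rel, the c-Rel subunit, read 472, 438, 650.0 and 619 CPM at 3 h and 46.8, 42.6, 79.2 and 72.3 CPM at 20 h. Rel fell by 3.18 ± 0.20 SE on the log2 scale (adjusted p = 1.6e-20). Nfkb1, which encodes p105 and p50, fell from 1227 ± 102 to 262 ± 43.7 CPM (log2 fold change -2.23 ± 0.09 SE, adjusted p = 1.3e-27). Rela fell from 285 ± 29.1 to 121 ± 4.92 CPM (log2 fold change -1.23 ± 0.09 SE, adjusted p = 1.2e-17), and Nfkb2 from 854 ± 136 to 477 ± 43 CPM (log2 fold change -0.84 ± 0.13 SE, adjusted p = 6.2e-08). The log2 fold changes of the inhibitor genes Nfkbia, Tnfaip3 (A20) and Nfkbiz were -1.39, -2.10 and -2.24. Ripk2, the kinase downstream of NOD receptors, read 331, 321, 413 and 402 CPM at 3 h and 26.1, 24.7, 38.5 and 38.9 CPM at 20 h. Ripk2 fell by 3.51 ± 0.17 SE on the log2 scale (adjusted p = 9.9e-26). Irak3, a kinase-like inhibitor of Toll-like receptor signals, went the other way with 278, 277, 224 and 232 CPM at 3 h and 535, 531, 416 and 432 CPM at 20 h. Irak3 rose by 0.92 ± 0.13 SE on the log2 scale (adjusted p = 2.1e-08). At 20 h 24 of the 30 were still above rest, with a median distance of 1.24, beside 2.76 at 3 h.

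Of 43 immediate early genes 28 fell, 8 rose and 7 did not pass (median -1.29), where 24.3% of all genes fell. Zfp36, which encodes tristetraprolin, a protein that destabilises cytokine mRNAs, read 1789, 1669, 1185 and 1113 CPM at 3 h and 70.8, 72.2, 90.6 and 76.2 CPM at 20 h. Zfp36 fell by 4.22 ± 0.18 SE on the log2 scale (adjusted p = 2.0e-27). At 20 h it lay below the resting level of 254 ± 21.5 CPM (activated minus resting -1.71 ± 0.16 SE, adjusted p = 1.4e-13). Dusp2, a phosphatase of MAP kinases, fell from 289 ± 48 to 18.9 ± 1.51 CPM (log2 fold change -3.94 ± 0.13 SE, adjusted p = 5.3e-32). Egr2 fell from 18 ± 6.98 to 0.969 ± 0.183 CPM (log2 fold change -4.20 ± 0.30 SE, adjusted p = 3.1e-18), and Fos from 83.7 ± 15.6 to 16.4 ± 5.36 CPM (log2 fold change -2.36 ± 0.25 SE, adjusted p = 2.4e-12), both to below rest. Atf3, a repressor of cytokine genes, fell from 828 ± 27.8 to 235 ± 40.1 CPM (log2 fold change -1.82 ± 0.09 SE, adjusted p = 2.2e-24), beside a resting level of 274 ± 27.9 CPM. Nr4a3, an orphan nuclear receptor, fell from 11.5 ± 1.08 to 0.272 ± 0.152 CPM (log2 fold change -5.36 ± 0.34 SE, adjusted p = 5.2e-20). Ier3 rose from 31.3 ± 18.6 to 87.4 ± 27.1 CPM (log2 fold change 1.48 ± 0.32 SE, adjusted p = 7.3e-05), and at both times replicates 1 and 2 lay above replicates 3 and 4. The call was lost with only the libraries compared (adjusted p = 0.0121) and with replicates 1 and 2 only (0.0118).

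Enzymes of the inflammatory response were mixed. Nos2, the inducible nitric oxide synthase, read 768, 524, 514 and 453 CPM at 3 h and 78.7, 63, 161 and 129.6 CPM at 20 h. Nos2 fell by 2.38 ± 0.30 SE on the log2 scale (adjusted p = 8.4e-10). Acod1, which makes itaconate, fell from 11950.0 ± 204 to 4875 ± 919 CPM (log2 fold change -1.29 ± 0.19 SE, adjusted p = 5.8e-08). Slc7a2, an arginine transporter, rose from 742 ± 37.4 to 1546 ± 203 CPM (log2 fold change 1.06 ± 0.12 SE, adjusted p = 1.1e-10). Arg2, the mitochondrial arginase, rose from 4.77 ± 0.58 to 15.9 ± 6.68 CPM (log2 fold change 1.73 ± 0.26 SE, adjusted p = 8.3e-08). Of the 11 tested genes of this group 5 rose and 5 fell, where 31.7% of all genes rose and 24.3% fell. The median of the group, -0.27, was 0.10 with library size only. Ptgs2, the inducible cyclooxygenase, fell from 1269 ± 90.3 to 641 ± 186 CPM (log2 fold change -0.99 ± 0.20 SE, adjusted p = 2.8e-05). With replicates 3 and 4 only it did not pass (-0.66, adjusted p = 0.0344). Ptges, the terminal prostaglandin E synthase, read 433, 508, 208 and 205 CPM at 3 h and 1183, 1162, 995 and 973 CPM at 20 h. Ptges rose by 1.67 ± 0.26 SE on the log2 scale (adjusted p = 1.5e-07). Nlrp3, the inflammasome sensor, fell from 1441 ± 128 to 303 ± 14.3 CPM (log2 fold change -2.25 ± 0.09 SE, adjusted p = 1.7e-28).

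Surface proteins of immune contact fell in 9 of 19 cases and rose in 3, where 24.3% of all genes fell and 31.7% rose. Cd40, the receptor for T cell help, fell from 1028 ± 97.9 to 161 ± 23.8 CPM (log2 fold change -2.67 ± 0.16 SE, adjusted p = 1.6e-21). Cd83 fell from 465 ± 16.3 to 23.1 ± 8.23 CPM (log2 fold change -4.33 ± 0.25 SE, adjusted p = 3.1e-22), to below rest, and Icam1, an adhesion molecule, from 2399.6 ± 129 to 287 ± 21.2 CPM (log2 fold change -3.07 ± 0.09 SE, adjusted p = 1.1e-34). Cd274, the inhibitory ligand PD-L1, read 1208, 1026, 1489.6 and 1497 CPM at 3 h and 1094, 829, 1292 and 1235 CPM at 20 h. The difference for Cd274 was -0.23 ± 0.15 SE on the log2 scale (adjusted p = 0.16). With the replicate block it passed as lower (adjusted p = 0.0085). Ccr7, the receptor that guides cells to lymph nodes, read 0.436, 0.641, 0.662 and 0.319 CPM at 3 h and 6.14, 3.75, 8.1 and 8.06 CPM at 20 h. Ccr7 rose by 3.61 ± 0.40 SE on the log2 scale (adjusted p = 1.2e-11), from a low level.

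Of 28 pattern recognition receptors and adapters 16 fell and 4 rose, with a median of -0.64, where 24.3% of all genes fell. The lectin Clec4e (Mincle) read 2862, 3323, 4618 and 4819.9 CPM at 3 h and 2812, 2612, 5286 and 5870.2 CPM at 20 h. The difference for Clec4e was 0.09 ± 0.26 SE on the log2 scale (adjusted p = 0.79), and replicates 3 and 4 lay above replicates 1 and 2 at both times. Fpr1, the formyl peptide receptor, rose from 245 ± 22 to 592 ± 46.8 CPM (log2 fold change 1.28 ± 0.12 SE, adjusted p = 9.7e-14). C5ar1, the receptor for complement C5a, fell from 419 ± 13.9 to 80 ± 10.3 CPM (log2 fold change -2.39 ± 0.10 SE, adjusted p = 1.1e-28). Cd14, the co-receptor for lipopolysaccharide, fell from 3598 ± 720.2 to 1608 ± 216 CPM (log2 fold change -1.16 ± 0.13 SE, adjusted p = 9.2e-12). Tlr4, the receptor for lipopolysaccharide, stood at 27 ± 10.9 CPM at 3 h and 38.2 ± 10.3 CPM at 20 h (log2 fold change 0.50 ± 0.29 SE, adjusted p = 0.13). It passed as higher with the replicate block (adjusted p = 0.0049). Tnfrsf1b, the TNF receptor 2, stood at 5013 ± 716 CPM at 3 h and 5210.2 ± 489.9 CPM at 20 h (log2 fold change 0.06 ± 0.10 SE, adjusted p = 0.64), and with library size only it too passed as higher (adjusted p = 1.5e-04). Tlr2 had a log2 fold change of -0.32 ± 0.09 SE (adjusted p = 0.0015), whose sign turned with library size only. It did not pass with replicates 1 and 2 only (0.044) or without the filter (0.0116).

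Of 20 MHC class I and immunoproteasome genes 8 were higher and 7 lower, with a median of 0.15, where 31.7% of all genes were higher and 24.3% lower. The 8 were 5 with DESeq2, and also without replicate 1, 2, 3 or 4 at 3 h or replicate 3 at 20 h. H2-K1, a class I heavy chain, rose from 2344 ± 92.1 to 3289.5 ± 104 CPM (log2 fold change 0.49 ± 0.09 SE, adjusted p = 4.2e-06). H2-Q7 rose from 75.9 ± 10.7 to 273 ± 17.9 CPM (log2 fold change 1.84 ± 0.21 SE, adjusted p = 3.2e-11), but H2-Q genes share much sequence and their counts are less certain. Tap1, the peptide transporter, fell from 685 ± 74.3 to 391 ± 43.9 CPM (log2 fold change -0.81 ± 0.12 SE, adjusted p = 3.7e-08). All 20 were above rest at 20 h, with a median distance of 1.67 beside 1.73 at 3 h. Of 10 MHC class II genes 2 rose, 3 fell and 5 did not pass, and without replicate 3 at 20 h none of the 3 passed by edgeR. H2-Ab1 read 35.2, 37.8, 14.6 and 18.6 CPM at 3 h and 146, 184, 56.8 and 83.7 CPM at 20 h. H2-Ab1 rose by 2.15 ± 0.33 SE on the log2 scale (adjusted p = 9.8e-08), with replicates 1 and 2 the highest at both times.

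**Figure D3:**
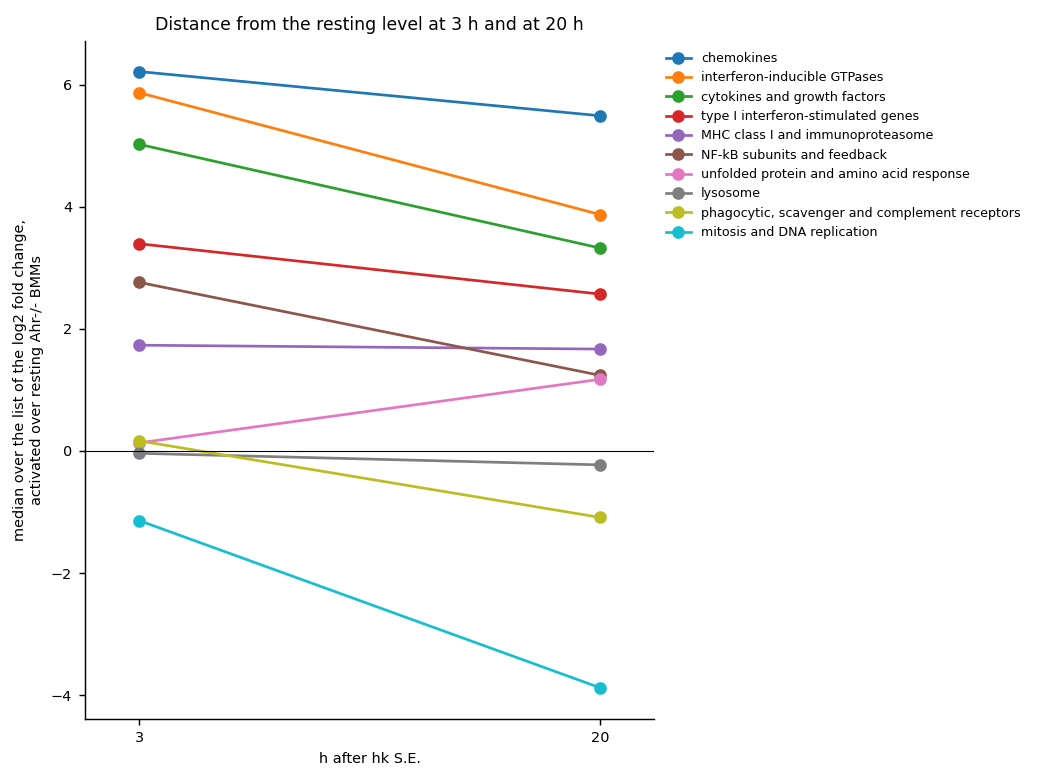
Median over 10 gene lists of the log2 fold change of activated over resting Ahr-/- BMMs at 3 h and at 20 h p.a. (genes without counts in the resting libraries set against 3 counts over the group). Chemokines (6.21 at 3 h, 5.49 at 20 h), GTPases (5.87, 3.87) and cytokines (5.02, 3.32) came closer to rest but stayed above it, whereas mitosis genes (-1.14, -3.88) moved further below.

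Against these falls stood a set of genes that were higher at 20 h than at 3 h. Saa3, an acute phase apolipoprotein made by activated macrophages, read 1408, 1741, 783 and 753 CPM at 3 h and 46398, 46169, 25247 and 26342 CPM at 20 h. Saa3 rose by 4.94 ± 0.39 SE on the log2 scale (adjusted p = 1.3e-16), and replicates 1 and 2 were above replicates 3 and 4 at both times. Lcn2, which withholds iron from bacteria by binding their siderophores, read 61.1, 67.6, 35.5 and 37.8 CPM at 3 h and 2710.3, 2652, 1422 and 1239.9 CPM at 20 h. Lcn2 rose by 5.31 ± 0.37 SE on the log2 scale (adjusted p = 1.5e-18), with the same order of replicates. Hp, haptoglobin, rose from 29.1 ± 12.8 to 263 ± 68.3 CPM (log2 fold change 3.18 ± 0.29 SE, adjusted p = 1.7e-14). Orm1, an acute phase glycoprotein, rose from 0.355 ± 0.195 to 7.34 ± 1.23 CPM (log2 fold change 4.40 ± 0.31 SE, adjusted p = 5.4e-18). Cfb, complement factor B, read 14.1, 13, 13.9 and 13.1 CPM at 3 h and 162, 156, 114 and 119 CPM at 20 h. Cfb rose by 3.35 ± 0.17 SE on the log2 scale (adjusted p = 3.4e-24). Cp, the copper protein ceruloplasmin, rose from 81.9 ± 16.2 to 402 ± 51.8 CPM (log2 fold change 2.30 ± 0.17 SE, adjusted p = 2.5e-17). Of 34 tested secreted defence and matrix proteins 10 rose and 18 fell, where 31.7% of all genes rose and 24.3% fell.

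The largest rise among genes of at least 10 CPM was that of Slc1a2, a glutamate transporter best known from astrocytes, with 1.62, 1.24, 1.1 and 0.831 CPM at 3 h and 104, 96.5, 43.6 and 61.7 CPM at 20 h. Slc1a2 rose by 6.00 ± 0.35 SE on the log2 scale (adjusted p = 5.9e-22), and at 20 h replicates 1 and 2 were the highest. Adgb, androglobin, read 6.42, 5.77, 6.13 and 4.03 CPM at 3 h and 155, 130.4, 119.8 and 116 CPM at 20 h. Adgb rose by 4.54 ± 0.17 SE on the log2 scale (adjusted p = 1.2e-29). Aqp9, a channel for glycerol and water, rose from 4.6 ± 0.456 to 72.6 ± 14.1 CPM (log2 fold change 3.98 ± 0.15 SE, adjusted p = 2.0e-29). Siglece, an inhibitory lectin that binds sialic acids, read 16.4, 18.3, 10.5 and 14.2 CPM at 3 h and 403, 404, 245 and 249.9 CPM at 20 h. Siglece rose by 4.45 ± 0.23 SE on the log2 scale (adjusted p = 4.4e-24). Dgat2, the last enzyme of triglyceride synthesis, rose from 5.45 ± 2.37 to 168 ± 68.5 CPM (log2 fold change 4.95 ± 0.35 SE, adjusted p = 2.4e-18). Vnn3, a vanin, rose from 2.03 ± 0.0736 to 56.5 ± 22.1 CPM (log2 fold change 4.80 ± 0.29 SE, adjusted p = 2.8e-21), and Antxr1, an anthrax toxin receptor, from 2.13 ± 0.363 to 52.9 ± 5.87 CPM (log2 fold change 4.63 ± 0.20 SE, adjusted p = 1.1e-27). Syt7 and Rims3, genes of vesicle release, also rose. Syt7 went from 2.05 ± 0.792 to 48.8 ± 10.3 CPM (log2 fold change 4.57 ± 0.26 SE, adjusted p = 8.4e-22) and Rims3 from 1.73 ± 0.374 to 36.1 ± 0.316 CPM (log2 fold change 4.38 ± 0.20 SE, adjusted p = 6.0e-26). Marco, a scavenger receptor for bacteria, read 197, 233, 178 and 157 CPM at 3 h and 2603, 2726, 1276 and 1099 CPM at 20 h. Marco rose by 3.33 ± 0.40 SE on the log2 scale (adjusted p = 2.4e-10), the largest rise among the phagocytic receptors tested, with replicates 1 and 2 the highest at 20 h.

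Genes of iron and metal handling rose in 4 of 17 cases and fell in 8 (median -0.42), where 31.7% of all genes rose and 24.3% fell. Their log2 fold changes ran from -5.32 to 2.30, and those that fell are not named here. Of the genes that follow, Fth1 is on this list and Spic is not. Hmox1 and Cybb are counted with the NADPH oxidase and NRF2 targets. Spic, a transcription factor induced by heme that specifies iron-recycling macrophages, read 1.81, 1.05, 0.794 and 0.575 CPM at 3 h and 41.9, 33, 46.2 and 42.5 CPM at 20 h. Spic rose by 5.29 ± 0.24 SE on the log2 scale (adjusted p = 2.0e-26). Hmox1, heme oxygenase 1, read 206, 222, 207 and 223 CPM at 3 h and 1405, 1363, 1008 and 968 CPM at 20 h. Hmox1 rose by 2.47 ± 0.16 SE on the log2 scale (adjusted p = 5.2e-20). Fth1, the ferritin heavy chain, rose from 12867 ± 1489 to 40042 ± 4546 CPM (log2 fold change 1.64 ± 0.10 SE, adjusted p = 5.1e-21). Cybb, the catalytic subunit of the phagocyte oxidase, rose from 3094 ± 391 to 5274 ± 659.8 CPM (log2 fold change 0.77 ± 0.11 SE, adjusted p = 2.1e-08). Of 27 genes of the NADPH oxidase and of NRF2 targets 11 rose and 8 fell (median 0.17), where 31.7% of all genes rose and 24.3% fell.

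Of 30 genes of the amino acid and endoplasmic reticulum stress responses 19 rose and 3 fell, with a median of 0.63, where 31.7% of all genes rose. Chac1, which degrades glutathione and is a target of ATF4, read 0.0623, 0.137, 0.132 and 0.128 CPM at 3 h and 11.5, 10.2, 11.9 and 12 CPM at 20 h. Chac1 rose by 6.55 ± 0.30 SE on the log2 scale (adjusted p = 1.1e-25). Trib3, a pseudokinase induced by ATF4 and CHOP, read 5.17, 7.14, 4.63 and 6.07 CPM at 3 h and 183, 151, 178 and 159 CPM at 20 h. Trib3 rose by 4.86 ± 0.20 SE on the log2 scale (adjusted p = 7.1e-28). Asns, asparagine synthetase, read 21.8, 25.7, 28.3 and 34.4 CPM at 3 h and 235, 226, 252 and 266 CPM at 20 h. Asns rose by 3.15 ± 0.15 SE on the log2 scale (adjusted p = 1.9e-25). Sesn2, a sensor of leucine, rose from 5.51 ± 1.67 to 84.4 ± 5.97 CPM (log2 fold change 3.94 ± 0.18 SE, adjusted p = 5.2e-26). Phgdh, the entry enzyme of serine synthesis, rose from 9.08 ± 1.79 to 97.8 ± 9.67 CPM (log2 fold change 3.43 ± 0.18 SE, adjusted p = 9.0e-24). Ddit3 (CHOP) rose from 17.6 ± 1.46 to 184 ± 30.8 CPM (log2 fold change 3.38 ± 0.17 SE, adjusted p = 2.1e-24), and Atf4, the transcription factor at their head, from 216 ± 14 to 692 ± 72.5 CPM (log2 fold change 1.68 ± 0.10 SE, adjusted p = 9.6e-21). Hspa5, the chaperone BiP, fell from 1807 ± 49.4 to 1194 ± 67.1 CPM (log2 fold change -0.60 ± 0.09 SE, adjusted p = 3.9e-08), and Calr, calreticulin, stood at 829 ± 63 CPM at 3 h and 743 ± 230.0 CPM at 20 h (log2 fold change -0.16 ± 0.16 SE, adjusted p = 0.41). With library size only the difference for Hspa5 was -0.23 and did not pass the edgeR test (adjusted p = 0.01).

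The letters TGATGNAA, the core of the amino acid response element bound by ATF4, were searched in the same windows on both strands. They were in 4 of the 26 members with a window (15.4%), in 3.97% of all windows and in 2.86% of the tested genes with a window. Of genes that rose beyond 2-fold 3.8% held them, and of those that fell 3.27%. Asns, Chac1 and Trib3 had a match each, and Ddit3, Sesn2, Phgdh and Atf4 had none in this window. The sequence for Chac1, the steepest riser of the list, lies upstream of its start at chr2:119351024-119351081 on the plus strand, with the match in capitals, read on the opposite strand.
Chac1: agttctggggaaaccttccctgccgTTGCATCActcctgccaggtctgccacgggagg

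Another set of genes lay at or below the resting level at 3 h and far below it at 20 h. Pcp4l1, a relative of the calmodulin regulator PCP4, read 23, 22.1, 16.8 and 19.7 CPM at 3 h and 0.095, 0.187, 0.258 and 0.0736 CPM at 20 h. Pcp4l1 fell by 7.17 ± 0.24 SE on the log2 scale (adjusted p = 5.3e-32), with resting levels of 44.3 ± 5.29 CPM at 3 h and 55.9 ± 16.6 CPM at 20 h. Emp1, an epithelial membrane protein gene, read 337, 294, 368 and 362 CPM at 3 h and 2.25, 1.95, 4.08 and 3.97 CPM at 20 h. Emp1 fell by 6.77 ± 0.26 SE on the log2 scale (adjusted p = 2.5e-29), with 329.8 ± 78.8 CPM at 3 h and 307 ± 68 CPM at 20 h at rest. Mrc1, the mannose receptor, read 24.2, 17.5, 21.4 and 22 CPM at 3 h and 0.412, 0.187, 0.626 and 0.478 CPM at 20 h. Mrc1 fell by 5.60 ± 0.29 SE on the log2 scale (adjusted p = 3.0e-24). Resting cells gained this transcript over the same hours, with 34.7, 18.3, 24.5 and 24.6 CPM at 3 h and 114, 99.1, 123 and 106 CPM at 20 h.

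Phagocytic, scavenger and complement receptors fell in 17 of 24 cases and rose in 5 (median -1.20), where 24.3% of all genes fell. At 20 h 16 of the 24 were below rest, as were 26.0% of all genes. Trem2, a lipid-sensing receptor of tissue macrophages, read 661, 669, 526 and 495 CPM at 3 h and 22.7, 26.3, 25.8 and 26 CPM at 20 h. Trem2 fell by 4.54 ± 0.14 SE on the log2 scale (adjusted p = 4.0e-34). Cd36, a scavenger receptor for oxidised lipids, fell from 409.7 ± 83.2 to 76.1 ± 24.5 CPM (log2 fold change -2.43 ± 0.26 SE, adjusted p = 5.1e-12). C1qb, a chain of complement C1q, fell from 1378 ± 245 to 285 ± 48.3 CPM (log2 fold change -2.27 ± 0.16 SE, adjusted p = 1.4e-18). Mertk, which takes up apoptotic cells, fell from 24.8 ± 5.36 to 8.55 ± 3.63 CPM (log2 fold change -1.55 ± 0.21 SE, adjusted p = 9.4e-09). Pparg, a lipid-sensing nuclear receptor, fell from 7.89 ± 1.42 to 0.845 ± 0.126 CPM (log2 fold change -3.23 ± 0.20 SE, adjusted p = 9.4e-21). Its resting levels were 46.1 ± 2.53 CPM at 3 h and 50.2 ± 5.37 CPM at 20 h. Igf1 fell from 648 ± 52.1 to 99.1 ± 17 CPM (log2 fold change -2.71 ± 0.13 SE, adjusted p = 1.2e-24), Apoe from 2269 ± 784 to 710.4 ± 242 CPM (log2 fold change -1.68 ± 0.27 SE, adjusted p = 4.2e-07) and Gpnmb from 4124 ± 529.7 to 1131 ± 314 CPM (log2 fold change -1.87 ± 0.17 SE, adjusted p = 5.2e-14). Abca1, which exports cholesterol to apolipoproteins, rose from 303 ± 44.2 to 539 ± 137 CPM (log2 fold change 0.83 ± 0.17 SE, adjusted p = 3.8e-05).

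Lysosomal genes fell in 24 of 39 cases and rose in 8 (median -0.40), or fell in 14 with library size only. With the main scaling 24.3% of all genes fell and 31.7% rose. Lipa, the acid lipase, fell from 1013 ± 148 to 232 ± 40.1 CPM (log2 fold change -2.13 ± 0.13 SE, adjusted p = 9.8e-21). Ctsb, cathepsin B, fell from 13782 ± 717 to 7366 ± 642 CPM (log2 fold change -0.90 ± 0.08 SE, adjusted p = 9.9e-16). Psap, prosaposin, fell from 8888 ± 1039 to 3595 ± 227 CPM (log2 fold change -1.31 ± 0.10 SE, adjusted p = 2.2e-16). Tfeb, a transcription factor for lysosomal genes, rose from 3.61 ± 1.16 to 12.7 ± 2.06 CPM (log2 fold change 1.80 ± 0.23 SE, adjusted p = 6.1e-10), and Neu1, a sialidase, from 64.3 ± 5.45 to 158 ± 13.5 CPM (log2 fold change 1.30 ± 0.09 SE, adjusted p = 5.6e-18).

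Of 18 macrophage lineage transcription factors 7 rose and 8 fell, where 31.7% of all genes rose and 24.3% fell. Their median of -0.17 was -0.59 with replicates 1 and 2 only and 0.26 with replicates 3 and 4 only. Spi1 (PU.1) fell from 712 ± 168 to 279 ± 27.8 CPM (log2 fold change -1.35 ± 0.15 SE, adjusted p = 1.6e-11). Cebpa, a myeloid transcription factor, rose from 5.97 ± 1.06 to 19.7 ± 1.41 CPM (log2 fold change 1.71 ± 0.18 SE, adjusted p = 4.4e-12), and stayed below its resting level of 111 ± 7.6 CPM at 20 h. Batf rose from 42 ± 15.7 to 141 ± 21.2 CPM (log2 fold change 1.75 ± 0.23 SE, adjusted p = 1.9e-09), with replicates 1 and 2 above 3 and 4 at both times.

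Mitosis and DNA replication genes fell in 32 of 43 cases and rose in 2, with a median of -1.90, where 24.3% of all genes fell. The resting cells went the other way. There 26 of the 43 were higher at 20 h than at 3 h, where 3.52% of all genes were higher and 3.46% lower. Mki67, a marker of cycling cells, read 92.4, 72.8, 104 and 105 CPM at 3 h and 34.3, 29, 22.2 and 28 CPM at 20 h. Mki67 fell by 1.72 ± 0.18 SE on the log2 scale (adjusted p = 4.7e-12). In resting cells it read 83.7, 58.6, 71.3 and 75.9 CPM at 3 h and 267, 123, 177 and 152 CPM at 20 h. Ccna2, cyclin A2, read 14.4, 10.6, 14.3 and 15.7 CPM at 3 h and 0.475, 0.15, 0.258 and 0.202 CPM at 20 h. Ccna2 fell by 5.66 ± 0.35 SE on the log2 scale (adjusted p = 1.3e-20). Cdk1, the mitotic kinase, fell from 18.2 ± 3.45 to 4.66 ± 0.882 CPM (log2 fold change -1.96 ± 0.20 SE, adjusted p = 2.3e-12). Top2a, topoisomerase II alpha, fell from 51.3 ± 10.6 to 7.03 ± 1.48 CPM (log2 fold change -2.86 ± 0.20 SE, adjusted p = 6.8e-19). The replicative helicase subunit Mcm5 fell from 24.5 ± 2.08 to 6.45 ± 1.11 CPM (log2 fold change -1.92 ± 0.15 SE, adjusted p = 4.5e-17), and Mcm6 from 114 ± 13.4 to 30.6 ± 2.41 CPM (log2 fold change -1.90 ± 0.11 SE, adjusted p = 2.9e-21). E2f1, a factor for entry into S phase, rose from 12.1 ± 1.11 to 39.4 ± 5.61 CPM (log2 fold change 1.70 ± 0.12 SE, adjusted p = 8.7e-18), beside a resting level of 35.5 ± 7.8 CPM. Brca1, a DNA repair gene, stood at 1.68 ± 0.654 CPM at 3 h and 2.38 ± 0.286 CPM at 20 h (log2 fold change 0.54 ± 0.23 SE, adjusted p = 0.036) and passed as higher without replicate 4 at 3 h (adjusted p = 0.0076).

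Several genes that hk S.E. had lowered by 3 h were higher again at 20 h, Narf and Bcl2 above rest and Lhfpl2 and Cnr2 still below it. Irf2bp2, a corepressor in macrophages, read 4.86, 5.17, 3.79 and 2.88 CPM at 3 h and 87.1, 88.9, 104 and 109.8 CPM at 20 h. Irf2bp2 rose by 4.54 ± 0.16 SE on the log2 scale (adjusted p = 3.2e-31). Its resting level at 20 h was 112 ± 9.01 CPM (activated minus resting -0.20 ± 0.13 SE, adjusted p = 0.17). Lhfpl2 rose from 8.65 ± 1.07 to 177 ± 29.6 CPM (log2 fold change 4.36 ± 0.14 SE, adjusted p = 2.8e-32), beside 249 ± 31.1 CPM at rest. Narf rose from 2.49 ± 0.177 to 47.1 ± 0.37 CPM (log2 fold change 4.24 ± 0.13 SE, adjusted p = 4.2e-33), beside 22.7 ± 1.82 CPM at rest. Bcl2, which opposes apoptosis, rose from 1.87 ± 0.259 to 11.4 ± 3.15 CPM (log2 fold change 2.59 ± 0.20 SE, adjusted p = 3.1e-17), beside 5.2 ± 0.496 CPM at rest. Cnr2, the cannabinoid receptor of immune cells, rose from 0.113 ± 0.0968 to 5.45 ± 0.673 CPM (log2 fold change 5.64 ± 0.32 SE, adjusted p = 4.2e-22), beside 31.5 ± 2.49 CPM at rest.

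Others were high at 3 h and near or below 10 CPM at 20 h. Plat, the tissue plasminogen activator, fell from 24.5 ± 9.64 to 0.505 ± 0.154 CPM (log2 fold change -5.61 ± 0.37 SE, adjusted p = 1.6e-19). Adamts4, a matrix protease, fell from 95.5 ± 30.3 to 1.72 ± 0.651 CPM (log2 fold change -5.82 ± 0.31 SE, adjusted p = 3.5e-23). Mycl, of the MYC family, fell from 45.3 ± 6.98 to 0.387 ± 0.262 CPM (log2 fold change -6.73 ± 0.27 SE, adjusted p = 2.2e-28). Lhx2, a LIM homeobox transcription factor, read 30.9, 24.6, 30.2 and 29.6 CPM at 3 h and 0.0633, 0.112, 0.552 and 0.405 CPM at 20 h. Lhx2 fell by 6.59 ± 0.34 SE on the log2 scale (adjusted p = 2.9e-24). The serpins Serpina3g and Serpina3f are neighbours of near-identical sequence, and their counts are less certain. Serpina3g fell from 148 ± 50.1 to 2.48 ± 1.56 CPM (log2 fold change -5.86 ± 0.44 SE, adjusted p = 1.9e-17) and Serpina3f from 48.3 ± 14.2 to 0.978 ± 0.764 CPM (log2 fold change -5.57 ± 0.48 SE, adjusted p = 3.3e-15). The collagenase gene Mmp13 also fell, from 2096 ± 330.3 to 150.0 ± 51.3 CPM (log2 fold change -3.80 ± 0.22 SE, adjusted p = 7.5e-22).

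Energy metabolism and translation changed less. Of 37 genes of the citric acid cycle and the respiratory chain 26 did not pass, 9 fell and 2 rose. Of 82 tested cytosolic ribosomal protein genes 73 did not pass and 9 fell, where 24.3% of all genes fell and 31.7% rose. The medians of both lists (-0.09 and -0.15) turned positive with library size only, where 20 and 21 members rose. With the replicate block 30 ribosomal protein genes fell. Glycolysis and HIF-1 targets rose in 11 of 29 cases and fell in 5 (median 0.42), beside 31.7% and 24.3% of all genes. With the replicate block 17 rose. Ldha, lactate dehydrogenase A, stood at 821 ± 117 CPM at 3 h and 1099.9 ± 354 CPM at 20 h (log2 fold change 0.42 ± 0.17 SE, adjusted p = 0.024). It passed as higher with the block (0.39, adjusted p = 2.4e-04) and without replicate 3 or 4 at 20 h (0.0044 and 0.0055). Of 23 tested genes of sterol synthesis and uptake 5 rose and 9 fell, where 31.7% of all genes rose and 24.3% fell. Another list, that of sterol efflux, holds Scd2, Abca1 and Apoe, and 5 of its 13 members rose and 7 fell. Scd2, a fatty acid desaturase, read 5.54, 3.02, 5.16 and 4.41 CPM at 3 h and 84.4, 99.5, 38.3 and 43.5 CPM at 20 h. Scd2 rose by 3.88 ± 0.30 SE on the log2 scale (adjusted p = 9.7e-17), with replicates 1 and 2 the highest at 20 h.

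Resting Ahr-/- BMMs changed far less over the same hours, in 1015 genes, 512 higher (3.52%) and 503 lower (3.46%). The change in activated cells differed from that in resting cells in 6491 genes, being more positive in 3665 (25.2%) and more negative in 2826 (19.4%). At 3 h 3702 genes (25.5%) were above rest and 4628 (31.8%) below. These comparisons share libraries, so their values are only set side by side. The largest positive difference from the resting change was that of Aqp9 (7.47 ± 0.27 SE, adjusted p = 8.8e-30). It was followed by Trib3 (6.78), Saa3 (5.99), Lcn2 (5.85), Cnr2 (5.56), Inhba (5.40), Phgdh (5.21), Adgb (5.15), Hp (4.90) and Cfb (4.79), all with adjusted p at most 1.1e-12. For Aqp9, Trib3, Phgdh, Inhba, Hp and Cfb the resting levels fell between the times. Resting Trib3, for example, read 11.7, 19.8, 21.5 and 23.9 CPM at 3 h and 3.86, 5.01, 5.85 and 5.4 CPM at 20 h.

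The largest negative differences included the cell cycle genes Ube2c (-7.97), Cenpf (-6.85), Ccna2 (-6.82) and Pclaf (-6.79), whose resting levels rose. Ube2c, a ubiquitin-conjugating enzyme of mitosis, read 13.3, 9.56, 10.5 and 10.9 CPM at 3 h and 0.158, 0.225, 0.0736 and 0.092 CPM at 20 h. In resting cells it read 9, 11.8, 10.6 and 10.3 CPM at 3 h and 52.6, 28.1, 25.2 and 21.5 CPM at 20 h. The others were Nptx1, Mrc1 (-7.72), Pcp4l1 (-7.50), Pde1c (-7.16), Mycl (-6.71) and Emp1 (-6.67). Nptx1, a neuronal pentraxin, read 8.28, 6.41, 5.03 and 4.6 CPM at 3 h and 0, 0, 0.0368 and 0.0368 CPM at 20 h, which is a few counts at most in any 20 h library. At rest it read 24.3, 22.8, 11.9 and 11.6 CPM at 3 h and 43.5, 26.7, 34 and 27 CPM at 20 h (adjusted p of the difference 3.9e-22). Pde1c, a phosphodiesterase, read 7.1, 7.23, 7.37 and 7.35 CPM at 3 h and 0.0317, 0.075, 0 and 0.0736 CPM at 20 h. Interferon-stimulated genes had a negative difference in 27 of 49 cases and a positive one in 5, and 20 of the 49 fell in resting cells too.

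The activated and resting Ahr+/+ libraries allowed genes to be sorted by their course with AhR present. They are not in the contrast of 20 h against 3 h, but entered the gene filter, the scaling and the estimate of spread. The resting ones carry identifiers of several series, and their replicate 4 at 20 h held 233047331 counts. In Ahr+/+ BMMs 1484 genes (10.2%) were raised and 1584 (10.9%) lowered beyond 2-fold by hk S.E. at 3 h, and 1425 (9.80%) and 1685 (11.6%) at 20 h. Of the 682 genes raised at 3 h only, 646 fell between the times in Ahr-/- BMMs, 1 rose and 35 did not pass. Their median was -1.83, beside -1.82 in Ahr+/+. Of the 784 raised at both times, 422 fell, 145 rose and 217 did not pass. Of the 627 raised at 20 h only, 439 rose and 12 fell (median 1.21, and 1.72 in Ahr+/+). Of the 1030 lowered at 3 h only, 929 rose (median 1.54), and of the 1127 lowered at 20 h only, 743 fell (median -1.41). Among the 18 genes raised at 3 h and lowered at 20 h all fell, and among the 14 with the opposite course all rose. Of the 9715 genes neither raised nor lowered beyond 2-fold in Ahr+/+ at either time, 1562 fell and 2852 rose. Over all genes 24.3% fell and 31.7% rose. These counts describe the classes and were not tested.

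**Figure D4:**
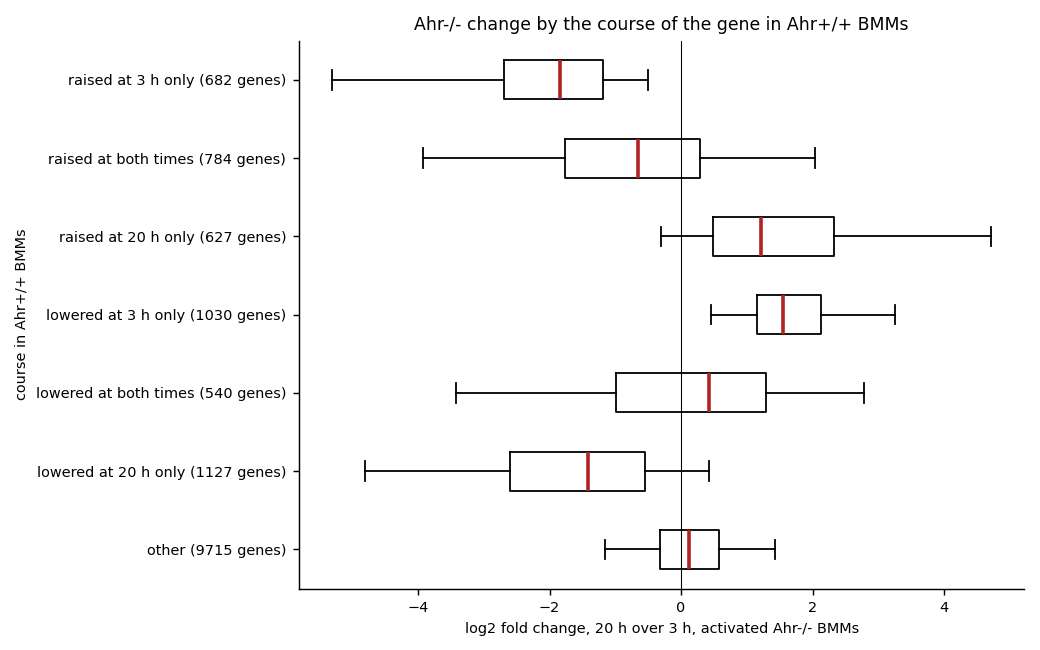
Log2 fold change from 3 h to 20 h p.a. in Ahr-/- BMMs (x axis) for genes grouped by their response to hk S.E. beyond 2-fold in Ahr+/+ BMMs (y axis). Boxes are quartiles with the median in red and whiskers the 5th and 95th percentiles: genes raised at 3 h only have a median of -1.83 and genes raised at 20 h only one of 1.21.

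The change itself differed between the genotypes in 885 genes, being more positive in Ahr-/- in 373 (2.57%) and more negative in 512 (3.52%). With a block for the replicate number 1898 genes passed. With replicates 1 and 2 only it was 614, and with replicates 3 and 4 only 29. Activated Ahr+/+ libraries at 20 h carry identifiers of another series than the Ahr-/- libraries at 20 h, so genotype and library series cannot be told apart there. At 3 h Ahr+/+ replicates 1 and 2 carry identifiers of a further series, while replicates 3 and 4 share that of the Ahr-/- libraries. Genotype and library series are thus partly mixed at 3 h as well.

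Interferon-stimulated genes had a more negative change without AhR in 8 of 49 cases, with a median difference of -0.48, where 3.52% of all genes had one. Without knockout replicates 1 and 2 the 8 became 0, with only wild-type replicates 1 and 2, or only 3 and 4, they were 1, and with the block 22. With single libraries left out the count was 4 to 11. Mx1 fell from 2146 ± 303 to 123 ± 72.4 CPM in Ahr-/-. In Ahr+/+ it fell from 2296 ± 229 to 545 ± 80.7 CPM (difference -2.05 ± 0.49 SE, adjusted p = 0.0028). Mx2 and Oasl1 differed by -1.21 and -1.44. For Cxcl11 the log2 fold changes were -3.84 in Ahr-/- and -1.39 in Ahr+/+ (difference -2.45 ± 0.59 SE, adjusted p = 0.0032). No GTPase passed this test by edgeR or DESeq2, and 2 did with the block. At an unadjusted p below 0.05 it was also 0 of the 17, and the median difference was -0.41. MHC class I genes had a more negative change in 7 of 20 cases, a count that was 0 without knockout replicates 1 and 2 and 2 to 8 with single libraries left out. Among them were Tap1 (-0.80 ± 0.17 SE, adjusted p = 8.2e-04) and H2-Q7 (-1.13).

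Mitosis genes had a more positive change in Ahr-/-, a smaller fall, in 12 of 43 cases and a more negative one in 1 (median difference 0.91). Of all genes 2.57% had a more positive and 3.52% a more negative change. The 12 were 3 without knockout replicates 1 and 2 and 19 with the block, and 9 to 14 with single libraries left out. Mki67 fell from 93.6 ± 15 to 28.4 ± 4.96 CPM in Ahr-/-. In Ahr+/+ it fell from 141 ± 16.6 to 16.6 ± 2.03 CPM (difference 1.36 ± 0.25 SE, adjusted p = 1.8e-04). Mcm5, given above for Ahr-/-, fell from 40 ± 3.29 to 3.42 ± 0.489 CPM in Ahr+/+ (difference 1.61 ± 0.21 SE, adjusted p = 7.6e-07). Dlgap5, a spindle protein gene, had a difference of 2.14 ± 0.41 SE, adjusted p = 2.2e-04.

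Immediate early genes had a more negative change in 9 of 43 cases, where 3.52% of all genes had one. With only knockout replicates 3 and 4 the 9 were 3, and with the block 15. With single libraries left out they were 5 to 10. Gadd45b, a stress sensor, fell from 336 ± 43.4 to 95.3 ± 24.3 CPM in Ahr-/-. Its means in Ahr+/+ went from 288 ± 4.39 to 314 ± 97.6 CPM (difference -1.94 ± 0.28 SE, adjusted p = 3.6e-06). Nr4a3 had a difference of -2.49 ± 0.45 SE, adjusted p = 1.3e-04.

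Il1a and Il10, which did not pass in Ahr-/-, fell in Ahr+/+. Il1a fell from 1805 ± 184 to 661 ± 149.9 CPM in Ahr+/+ (difference 1.87 ± 0.29 SE, adjusted p = 1.1e-05), and Il10 from 10.9 ± 3.74 to 4.61 ± 1.56 CPM (difference 1.68 ± 0.40 SE, adjusted p = 0.0032). Cish fell by more in Ahr+/+ (-4.90) than in Ahr-/- (-2.66), with a difference of 2.24 ± 0.39 SE, adjusted p = 5.5e-05. Trib3 rose less without AhR (difference -1.53 ± 0.28 SE, adjusted p = 1.0e-04), as did Ddit3 (-1.23) and Sesn2 (-1.10). Ahrr, the repressor of AhR and one of its targets, stayed below 1 CPM in the 8 Ahr-/- libraries, with 0.125, 0.275, 0.221 and 0.319 CPM at 3 h and 0.728, 0.787, 0.626 and 0.81 CPM at 20 h. Its rise was smaller than in Ahr+/+ (difference -1.79 ± 0.47 SE, adjusted p = 0.007).

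**Figure D5:**
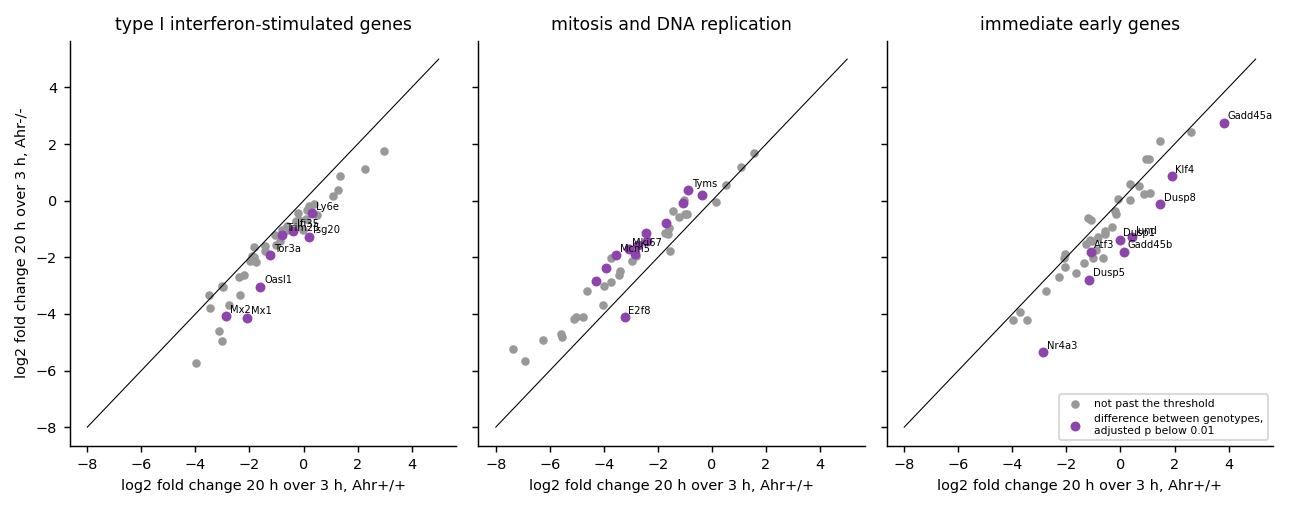
Log2 fold change from 3 h to 20 h p.a. in Ahr-/- (y axis) against Ahr+/+ BMMs (x axis) for the members of 3 gene lists, each point a gene and the line equal change. Purple points, with a difference between the genotypes at adjusted p below 0.01, lie below the line for interferon-stimulated genes (8) and immediate early genes (9) and, with 1 exception, above it for mitosis genes (12).

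The same span was also measured in Ahr-/- BMMs that had received a ligand before hk S.E., in libraries of their own. The median change of interferon-stimulated genes was -1.35 after BaP and -1.40 after I3C, beside -1.42 with the vehicle alone. That of mitosis genes was -1.73 and -1.81, beside -1.90. Cmpk2 changed by -5.65 after BaP and -5.68 after I3C on the log2 scale, and Trib3 by 4.73 after BaP and 4.83 after I3C. For Saa3 the values were 4.60 after BaP and 4.80 after I3C, and for Mrc1 -5.94 after BaP and -6.59 after I3C. Differences between these treatments were not tested here.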

How the data were processed

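Bulk mRNA sequencing libraries (TruSeq stranded) of BMMs were analysed as gene-level counts. The authors deposited raw counts for each of 64 libraries, not normalised, made per the labels and methods with bcl2fastq 2.19.0.316, HISAT2 2.1.0 on mm10 and strand-specific counting by HTSeq 0.9.1, and all were run on 1 flow cell. The 5 entries that name no gene held 19.2% to 25.1% of read pairs and stayed out of library sizes and tests.

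Counts of all 64 libraries in 16 groups of 4 were fitted with edgeR 4.0.16 (R 4.3.3, limma 3.58.1): genes with too few counts were removed (minimum count 10), TMM factors were applied, and the quasi-likelihood test without a block was used with 48 residual degrees of freedom, Benjamini-Hochberg adjustment over 14537 genes and a threshold of 0.01. A change beyond 2-fold was tested with glmTreat. CPM values use TMM-scaled library sizes. The scripts were tested on simulated data. Same-numbered libraries of the 2 times deviated together (r = 0.312, 0.366, 0.362 and 0.360), so a fit with a block for the replicate number was run as an alternative. Differently numbered libraries within replicates 1 and 2, or within 3 and 4, also deviated together (r = 0.199 to 0.349). Pairs across this split deviated in opposite directions (r = -0.355 to -0.245). Neither labels nor methods tie a replicate number to a mouse, so p-values measure the spread between these libraries, which may be technical. The authors' variance-stabilised table was not used.

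The members, the 29 gene lists and the rules were chosen with earlier results of these data known. The genes named are the 15 largest changes each way beyond 2-fold with a mean of at least 10 CPM and no overlap, the 10 largest differences each way from the resting change and between genotypes, and members of the lists with the largest changes or best known roles. A few of these are not reported here. Alternatives were DESeq2 1.42.0, other scaling, no filter, another threshold, fewer libraries and leaving out each library. Fits on replicates 1 and 2 or 3 and 4 only were chosen after seeing the data, as were the fits of the lists. Sequences come from RefSeq promoter tables (GRCm38.p6).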

Additional observations from a re-analysis of the deposited data

Results flagged for a closer look

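In 372 sets of 4 libraries (186 genes at 2 times), 10 had 1 library far from the other 3 by Dixon's criterion at the 95% level, where chance would give about 19 (1 in 20). At 3 h these were Adora3 in replicate 4 (0.511 CPM), Chac1 in replicate 1 (0.0623 CPM), Csf1 in replicate 2 (471 CPM), Cxcl2 in replicate 1 (1628 CPM), Nr4a3 in replicate 3 (13.1 CPM) and Phgdh in replicate 4 (11.8 CPM). At 20 h they were Atf4 in replicate 1 (799.8 CPM), Ifnb1 in replicate 3 (0.368 CPM), Scin in replicate 1 (0.0317 CPM, which is 1 count, the other 3 being at 0) and Trem2 in replicate 1 (22.7 CPM). In each case but Adora3 the 2 times still did not overlap.

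The change from 3 h to 20 h differed between Ahr-/- and Ahr+/+ BMMs in 51 of the genes checked (edgeR quasi-likelihood test of the difference, adjusted p below 0.01). Values are Ahr-/- minus Ahr+/+ on the log2 scale. More negative in Ahr-/- were, among genes chosen by size of the difference, Scin (-5.51), Rtn4r (-4.76), Apol7c (-4.27), Hsd17b1 (-3.97), Cacnb3 (-3.27), Arc (-3.23), Cryba4 (-3.08), Zbtb46 (-2.99), Serpinb6b (-2.86) and Plcd3 (-2.68). Serpinb6b, a serpin, fell from 12.5 ± 1.74 to 0.291 ± 0.109 CPM in Ahr-/- and from 16 ± 3.22 to 2.72 ± 0.975 CPM in Ahr+/+, and Cacnb3, a calcium channel subunit, fell from 20.4 ± 11.5 to 0.987 ± 0.502 CPM and from 11.5 ± 2.07 to 5.38 ± 1.84 CPM. Scin, Rtn4r, Hsd17b1, Arc, Cryba4, Zbtb46 and Plcd3 were below 2 CPM in every Ahr-/- library of the comparison, so that their differences rest on few counts.

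More positive by size were Csf3 (2.96), Hsd11b1 (2.91), Rad54b (2.79), Rmi2 (2.51), Kntc1 (2.30), Adora3 (2.25), Cish (2.24), Klhl6 (2.19), Dlgap5 (2.14) and Dctd (2.14). Kntc1, a kinetochore gene, fell from 5.04 ± 1.38 to 0.357 ± 0.132 CPM in Ahr-/- and from 12.1 ± 2.45 to 0.167 ± 0.0539 CPM in Ahr+/+, and Klhl6 rose from 1.4 ± 0.631 to 5.18 ± 1.54 CPM in Ahr-/- and went from 2 ± 0.42 to 1.62 ± 0.327 CPM in Ahr+/+. The calls for some of these 20 genes were lost when 1 library was left out, with a highest adjusted p of 0.056 for Cryba4 (without knockout replicate 1 at 3 h), 0.053 for Hsd11b1 (knockout replicate 2 at 20 h), 0.052 for Adora3 (wild-type replicate 2 at 3 h), 0.018 for Hsd17b1 (wild-type replicate 2 at 3 h), 0.017 for Rad54b (knockout replicate 2 at 20 h), 0.016 for Dctd (wild-type replicate 3 at 20 h), 0.015 for Rtn4r (knockout replicate 2 at 3 h), 0.011 for Arc (wild-type replicate 4 at 20 h) and 0.01 for Zbtb46 (knockout replicate 1 at 3 h).

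Of the list members, the signalling and transcription factor genes Nr4a3 (-2.49), Gadd45b (-1.94), Dusp1 (-1.35), Atf3 (-0.71), Nfkb2 (-0.78), Rela (-0.49) and Stat2 (-0.80) were more negative in Ahr-/-. So were the interferon-related genes Cxcl11 (-2.45), Mx1 (-2.05), Oasl1 (-1.44), Mx2 (-1.21), H2-Q7 (-1.13), Tap1 (-0.80) and H2-K1 (-0.48). The stress genes Trib3 (-1.53), Ddit3 (-1.23) and Sesn2 (-1.10) had the same sign, as did Ahrr (-1.79), Gpnmb (-1.09), Trem2 (-0.84), Tnfrsf1b (-0.71) and Psap (-0.59). The opposite sign was found for Il1a (1.87), Il10 (1.68), Arg2 (1.64), Mcm5 (1.61), Scd2 (1.60), Mki67 (1.36), Mcm6 (0.95), Calr (0.86) and Tlr2 (0.55).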

How the results depend on the processing

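The count of genes that differed between 20 h and 3 h p.a., 8137, was 7618 to 7860 when each library was left out in turn and 6197 to 9220 over other settings at this threshold, and the count beyond 2-fold, 2613, was 2400 to 2530 with each library left out. The difference from the resting change, 6491 genes, was 6095 to 6401 in the same way. The replicate block gave 9064, 2883 and 7625 for these counts and, for the genes named, changed only the 20 h against 3 h calls of Cd274, Il12b, Ldha and Tlr4, which passed. The count by genotype, 885, was 607 to 1000 with each library left out, 1898 with the replicate block, 1913 at a threshold of 0.05, 564 without the filter and 422 with only the libraries compared. In fits chosen after seeing the data it was 121 with knockout replicates 3 and 4, 451 with wild-type replicates 1 and 2, 116 with wild-type replicates 3 and 4, and 29 with replicates 3 and 4 of both. Fits on fewer libraries test fewer samples; otherwise the cause was not tested. For the genes the rule chose, 2603 of 2640 values of 20 h against 3 h over all settings kept their direction and side of the threshold. Tlr2 turned to 0.0485 (adjusted p = 0.634) with library size only, and Adora3, time by genotype, to -0.0619 (adjusted p = 0.997) with replicates 3 and 4 only. All 480 values against the resting change kept their direction and side, as did 412 of 549 by genotype, where 17 calls were lost with knockout replicates 3 and 4 and 14 with wild-type replicates 3 and 4.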
